A study of Mus musculus with 24 samples.

Results

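The nuclear oxidative phosphorylation genes were examined in NKT cells of mouse liver. They are the rows of the count matrix whose symbols begin with the names of complex I genes (Ndufa, Ndufb, Ndufc, Ndufs, Ndufv), complex II genes (Sdha to Sdhd), complex III genes (Uqcr), complex IV genes (Cox4 to Cox8) or ATP synthase genes (Atp5). Complex I assembly factors with Ndufaf names and processed pseudogene names were dropped. This rule, which used no measured value, took 89 of the 24447 genes in the matrix. Of the 89, 83 encode subunits, with 38 in complex I, 4 in complex II, 8 in complex III, 18 in complex IV and 15 in complex V. The other 6 share a prefix only: Sdhaf1, Sdhaf2, Sdhaf3 and Sdhaf4 are assembly factors of complex II, Atp5s is a coupling factor of ATP synthase, and Atp5sl is a relative of Atp5s.

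Oxidative phosphorylation is the pathway by which mitochondria turn electrons from nutrients into ATP. Complexes I and II take electrons from NADH and succinate, complex III passes them on to cytochrome c, complex IV hands them to oxygen, and complex V (ATP synthase) makes ATP from the proton gradient that complexes I, III and IV build. A few subunits of complexes I, III, IV and V are encoded in mitochondrial DNA and the rest in the nucleus, and resting T cells draw much of their ATP from this pathway.

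NK1.1+CD3e+ cells were sorted from perfused livers and picked singly by hand, and their poly(A) RNA was sequenced with unique molecular identifiers (UMIs), each marking 1 transcript molecule. The mice were of the C57BL/6 strain in the labels and 8 to 10 weeks old per the study's methods. WT mice have NKT cells of types I and II. The Jα18-deficient line carries a germline loss of the receptor segment that type I cells need. Per the study, the original Jα18-deficient mice lost several Jα segments, which narrows their receptor repertoire. It also describes Jα18-deficient mice as lacking MAIT cells, another T cell subset, so the line cannot be taken to lack type I cells alone. The CD1d-deficient line lacks Cd1d1, which encodes the molecule both types are selected on. Its related gene Cd1d2 was left in place per the study, so the line cannot be taken to lack every form of CD1d. The labels list 8 libraries per genotype, but cell names give only the genotype, so each genotype was 1 pool of cells without replicates and neither the sex nor the number of mice is given in the sources used here.

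Cells with at least 10000 UMIs were kept, 1382 of 1735, with 523 WT, 632 Jα18-deficient and 227 CD1d-deficient cells. The median depth was 51645, 58716 and 39744 UMIs per cell in these pools. The targeted gene Cd1d1 had 833 UMIs among WT, 930 among Jα18-deficient and 0 among CD1d-deficient cells. The Jα18 segment was not analysed here. Of the markers of the sorted cells, Cd3d was found in 99.8%, 99.8% and 99.6% of cells and Klrb1c, which encodes NK1.1, in 95.8%, 97.6% and 96.0%. The pools differed in myeloid transcripts. All 10 myeloid markers were detected in each pool, at a summed level of 134.6 UMIs per 1000000 UMIs of a pool (CPM) among WT, 36.9 among Jα18-deficient and 904 among CD1d-deficient cells. At least 1 of these UMIs was present in 98.7% of the CD1d-deficient, 47.0% of the WT and 41.9% of the Jα18-deficient cells. Lyz2 and Lyz1 gave 8177 and 3752 of the 12320 UMIs in the CD1d-deficient pool, and the other 8 markers together gave 391. Hepatocyte markers stayed between 1.76 and 18.6 CPM, B cell markers between 6.21 and 11.3 CPM and erythroid markers at or below 0.178 CPM.

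The 89 genes held about the same share of the UMIs in the WT and Jα18-deficient pools and a smaller one in the CD1d-deficient pool. Their summed level was 30564 CPM among WT (exact Poisson 95% interval 30505 to 30624), 30536 CPM among Jα18-deficient (30492 to 30580) and 28503 CPM among CD1d-deficient cells (28414 to 28593), which is 3.06%, 3.05% and 2.85% of all UMIs. The intervals cover counting error only, and with 1 pool per genotype no test was possible. On the log2 scale the CD1d-deficient pool was lower than the WT pool by a difference of -0.10 and lower than the Jα18-deficient pool by a difference of -0.10. Scaled by TMM, which sets the pools to a common bulk of genes, these differences were -0.16 and -0.04, and the Jα18-deficient pool was at -0.12 relative to the WT pool. The lower level of the CD1d-deficient pool was present in both scalings, while the order of the WT and Jα18-deficient pools depended on the scaling. The part of depth, of the myeloid transcripts and of the mix of cell subsets in this difference was not tested. Among WT cells the level was 30479 CPM with a myeloid marker UMI and 30651 CPM without one. Among Jα18-deficient cells it was 30482 and 30619 CPM. The median depth of these groups was 51883 and 50610 UMIs for WT but 104290 and 41677 UMIs for Jα18-deficient cells. For the latter the split thus does not separate the marker from depth. Only 3 CD1d-deficient cells had no marker UMI, too few for this split.

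The difference between the CD1d-deficient and WT pools lay mostly in complexes III, IV and V. The summed level of complex V, ATP synthase, was 8731.6 CPM among WT, 8553.1 CPM among Jα18-deficient and 7746.9 CPM among CD1d-deficient cells, and that of complex III was 2698.3, 2674.2 and 2432.7 CPM. Complex IV, cytochrome c oxidase, had 8430.3, 8264.3 and 7875.6 CPM. Complex I, the NADH dehydrogenase with the most subunits, had 9700.0, 10045 and 9523.7 CPM. Complex II, succinate dehydrogenase, had 749.6, 718.2 and 733 CPM. On the log2 scale the CD1d-deficient pool differed from the WT pool by -0.17 for complex V, -0.15 for complex III, -0.10 for complex IV and -0.03 for complexes I and II. All 5 differences were below 0 with TMM scaling too, between -0.09 and -0.23. Complex I here counts Ndufa4, which structural work has since assigned to complex IV. Ndufa4 alone went from 729.1 CPM among WT to 453.8 CPM among CD1d-deficient cells. This is a larger fall than that of the whole complex I sum, so the complex I difference from WT rests on where Ndufa4 is counted. Relative to the Jα18-deficient pool the log2 differences were -0.14 for complexes III and V and -0.08 for complex I. They were -0.07 for complex IV and 0.03 for complex II. With TMM scaling these values were -0.08 for complexes III and V, -0.02 for complex I, -0.01 for complex IV and 0.09 for complex II. The part of complexes I and IV in that difference thus depended on the scaling.

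**Figure D1:**
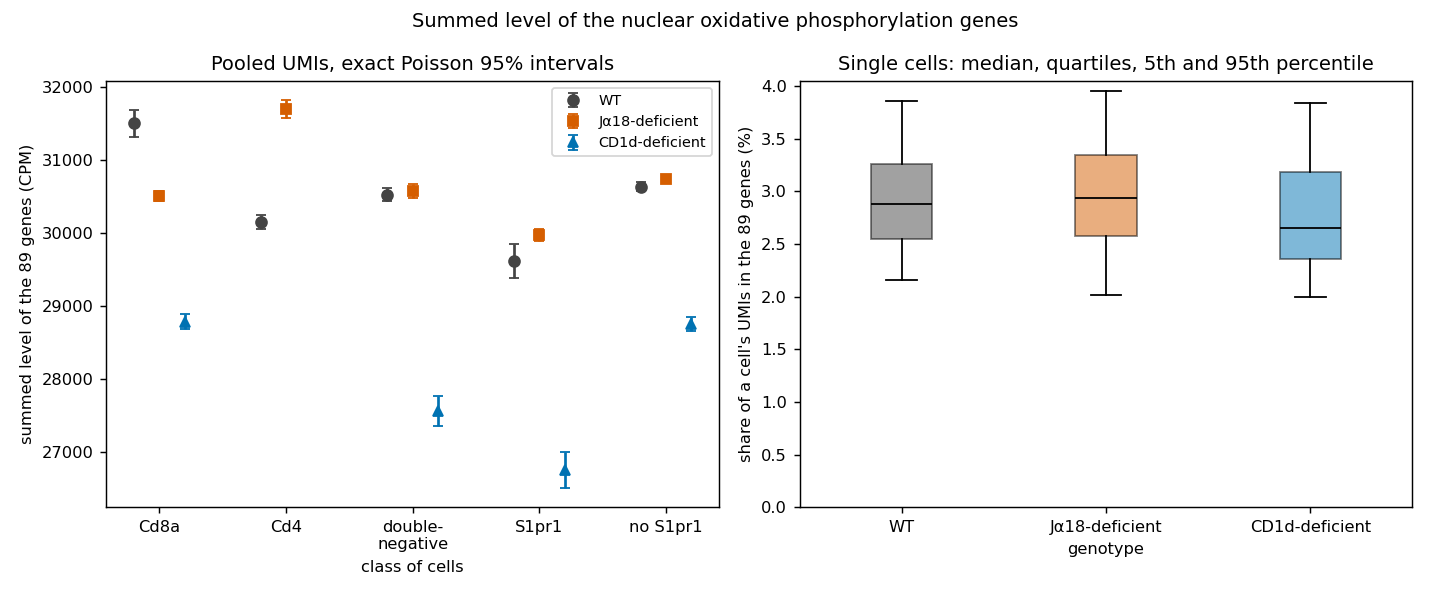
Left, summed level of the 89 genes in CPM (axis does not start at 0) by class of cells and genotype, with exact Poisson 95% intervals; the CD1d-deficient pool has no point in the Cd4 class, which held 2 of its cells. Right, share of each cell's UMIs in the 89 genes in percent, where boxes give the median and quartiles and whiskers the 5th and 95th percentile; medians were 2.88%, 2.94% and 2.65% and the boxes overlap.

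Single cells of all 3 pools overlapped widely. The median share of a cell's UMIs in the 89 genes was 2.88% in the WT pool, with 5th and 95th percentiles of 2.16% and 3.90%. The Jα18-deficient pool had a median of 2.94% (2.02% to 3.95%) and the CD1d-deficient pool 2.65% (1.99% to 3.84%). With each cell thinned at random to 10000 UMIs, a median of 47, 46 and 45 of the 89 genes was detected per cell. Over thinned cells, Pearson's r between the summed UMIs of complexes IV and V was 0.26 among WT, 0.23 among Jα18-deficient and 0.09 among CD1d-deficient cells. Over all 10 pairs of complexes it lay between -0.003 and 0.26. The cells share library, depth and pool, and so r is a description only.

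The share was higher in deeper cells in the WT and Jα18-deficient pools, and in the CD1d-deficient pool only from 20000 UMIs on. In cells of 10000 to 20000 UMIs the median share was 2.63% among WT, 2.68% among Jα18-deficient and 2.83% among CD1d-deficient cells. In cells of 80000 UMIs or more it was 3.12%, 3.05% and 2.76%. The CD1d-deficient median was 2.48% in cells of 20000 to 40000 UMIs and 2.60% in cells of 40000 to 80000 UMIs, so it fell after the shallowest bin and then rose. The CD1d-deficient cells therefore had the highest median of the pools among the shallowest cells and the lowest among the deepest. The shallowest cells numbered 74, 90 and 61, and the deepest 144, 244 and 54.

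**Figure D2:**
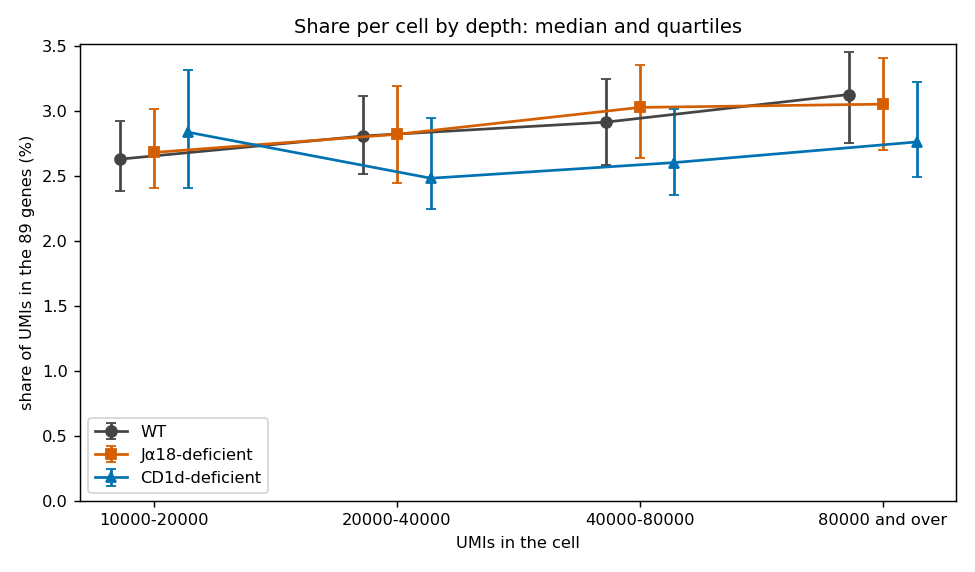
Share of a cell's UMIs in the 89 genes in percent against the cell's depth in UMIs, in 4 bins, for each genotype; points are medians and bars the quartiles. The WT medians go from 2.63% to 3.12%, and the CD1d-deficient medians go from 2.83% down to 2.48% and up again to 2.76%.

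The genes were broadly detected. Of the 89, 79 had at least 1000 UMIs over all cells, 5 had fewer and 5 were listed at 0. A UMI was found in at least 50% of cells for 69 genes and in at least 90% for 26. A UMI marks a molecule whatever its transcript's length, so CPM here is not divided by length, but capture may differ between genes. In complex I the most UMIs belonged to Ndufa13, an accessory subunit, with 70452 (657.3 CPM), and the fewest among detected genes to Ndufs1, a core subunit that carries iron-sulfur clusters, with 4566 (42.6 CPM). In complex II, Sdhb, the iron-sulfur subunit, had 32766 and Sdhd, a membrane anchor, 13056. In complex III, Uqcrh, the hinge protein, had 72346 and Uqcrfs1, the Rieske iron-sulfur protein, 17147. In complex IV, Cox8a had 145248 and Cox4i2 had 3. In complex V, Atp5e, the epsilon subunit, had 95311 and Atp5g3 had 28651. The genes outside the complexes lay at the low end of this range, from 8809 UMIs for Sdhaf2 (82.2 CPM) to 716 for Sdhaf3 (6.68 CPM).

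UMIs were unevenly spread over cells. The 14 cells with the most UMIs of a gene, 1% of all cells, held a median of 15.8% of its UMIs among genes with at least 1000. The share was 8.59% for Atp5e and 9.02% for Cox8a but 28.5% for Ndufv1, 39.5% for Sdhaf1 and 67.1% for Atp5s. Poisson intervals of the genes with few UMIs therefore understate their spread.

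**Figure D3:**
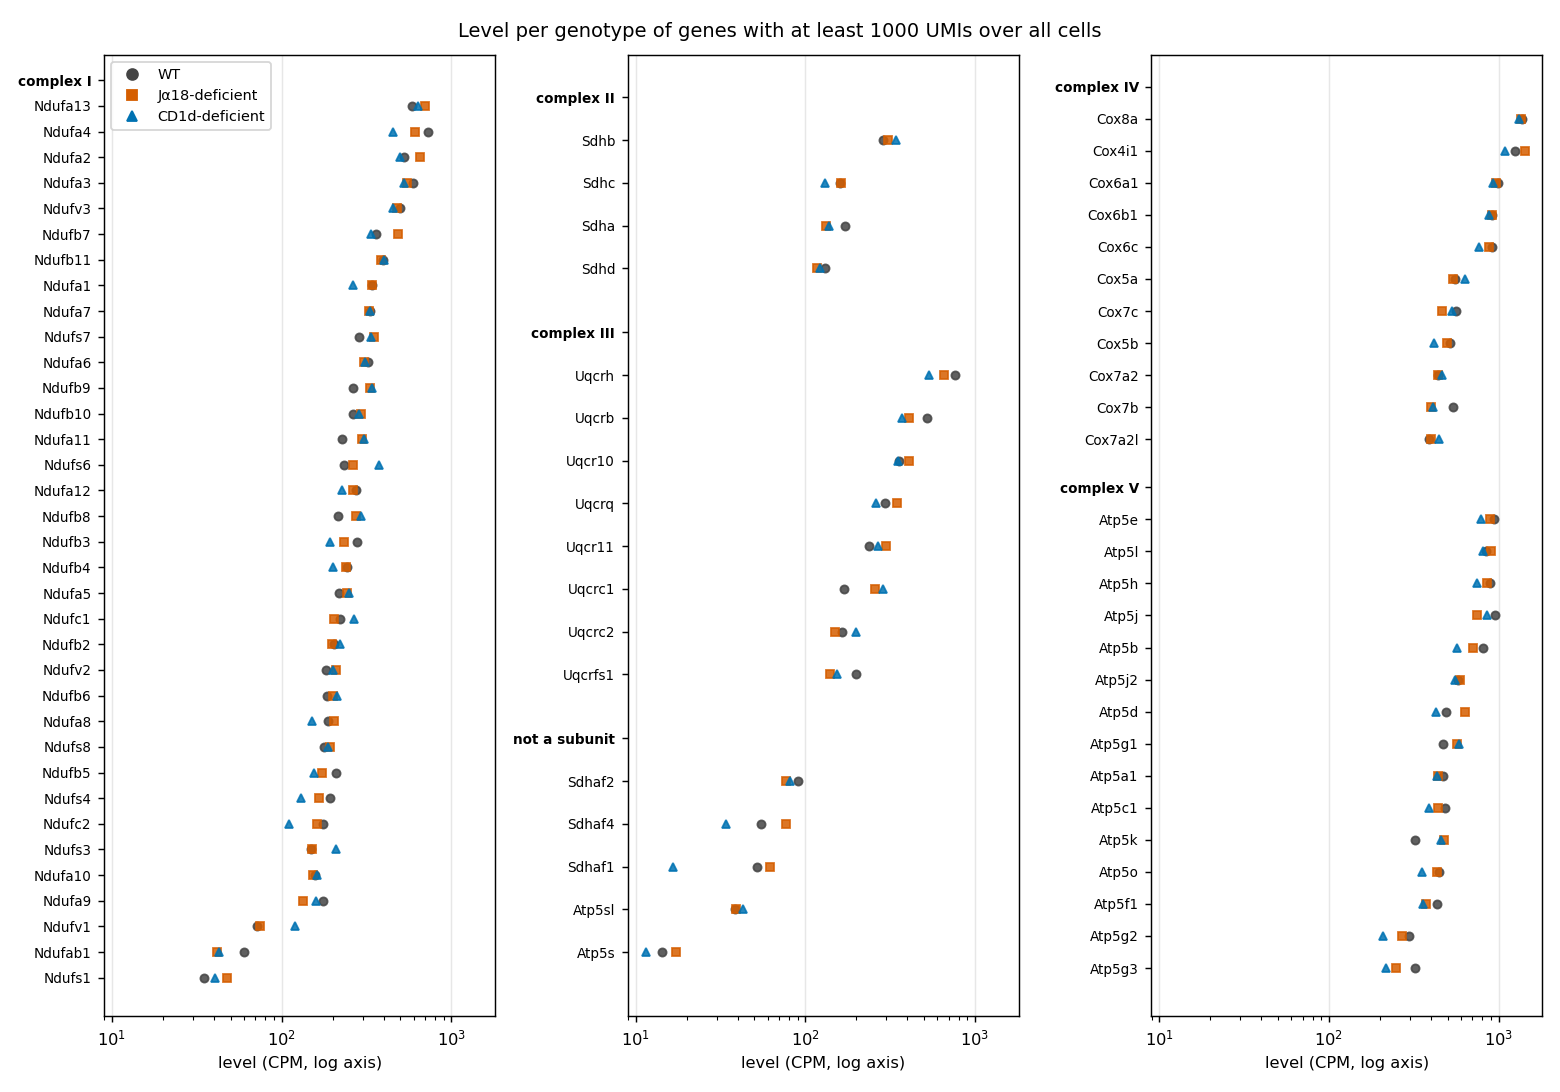
Level in CPM (log axis) of 78 of the 79 genes with at least 1000 UMIs, 1 row per gene, grouped by complex and ordered by summed UMIs, with 1 symbol per genotype. In most rows the 3 symbols lie close together, and Sdhaf1 and Sdhaf4 have the CD1d-deficient symbol well to the left of the others.

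Several complex IV subunits exist as paired genes, one active in most tissues and one restricted to tissues such as muscle, lung or testis. The NKT cells used the widespread forms almost alone. Cox4i1 had 141921 UMIs against 3 of Cox4i2, the lung form, all in 1 cell. Cox6a1 had 103333 against 125 of Cox6a2, a heart and muscle form, of which 108 were in 1 WT cell. Cox6b1 had 97501 against 74 of Cox6b2, a testis form, found in 4 cells. Of the Cox7a genes, Cox7a2 had 47528 UMIs, Cox7a2l, which encodes a factor of respiratory supercomplexes, had 42951, and Cox7a1, a heart and muscle form, had 72 in 13 cells. Cox8a had 145248 UMIs, while Cox8b and Cox8c were listed at 0, as were Cox7b2 beside Cox7b and Ndufa4l2 beside Ndufa4. For Cox8b a count of 0 allows a level of up to 0.0892 CPM among WT, 0.0501 CPM among Jα18-deficient and 0.22 CPM among CD1d-deficient cells.

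Ndufs5, a complex I subunit used in most tissues, was also listed at 0. Its coding sequence has 1 further match in the mm9 genome (NCBIM37) at 99.4% identity. Of the 95 ribosomal protein genes in the matrix 5 were at 0, Rpl30 among them, so a 0 in this matrix is not evidence that a gene was silent. Over the 86 genes with 1 entry in the GENCODE M1 annotation, 21 had at least 1 other match of at least 95% identity over at least 80% of their coding sequence, with up to 8 for Atp5l, and reads of these genes could have been split between copies.

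The promoters of 2 pairs of such forms are shown, Cox8a with Cox8b and Cox7a2 with Cox7a1. One gene of each pair was abundant and the other was at or near 0, which held for other pairs too. Each sequence is the 250 bases before the transcript start in RefSeq (GRCm38.p6), 5′ to 3′ on the gene's strand, with CpG dinucleotides in capitals. Cox8a (chr19:7217617-7217866, minus strand) has 11 CpG and Cox8b (chr7:140900447-140900696, minus strand) has 1. Cox7a2 (chr9:79759854-79760103, minus strand) has 14 and Cox7a1 (chr7:30183921-30184170, plus strand) has 4.
Cox8a: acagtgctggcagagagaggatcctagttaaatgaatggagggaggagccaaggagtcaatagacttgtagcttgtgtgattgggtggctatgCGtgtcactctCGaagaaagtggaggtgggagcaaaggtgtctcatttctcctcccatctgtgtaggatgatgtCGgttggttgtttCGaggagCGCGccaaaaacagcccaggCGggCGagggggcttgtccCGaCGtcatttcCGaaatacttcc
Cox8b: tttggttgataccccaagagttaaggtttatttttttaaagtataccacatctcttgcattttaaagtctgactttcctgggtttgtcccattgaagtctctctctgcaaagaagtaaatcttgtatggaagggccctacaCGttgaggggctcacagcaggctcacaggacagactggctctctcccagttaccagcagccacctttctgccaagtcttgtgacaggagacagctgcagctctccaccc
Cox7a2: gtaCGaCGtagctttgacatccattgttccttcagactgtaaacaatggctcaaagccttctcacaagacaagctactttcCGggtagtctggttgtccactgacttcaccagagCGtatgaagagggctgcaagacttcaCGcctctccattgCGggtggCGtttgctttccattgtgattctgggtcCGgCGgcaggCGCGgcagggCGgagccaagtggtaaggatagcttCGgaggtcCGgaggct
Cox7a1: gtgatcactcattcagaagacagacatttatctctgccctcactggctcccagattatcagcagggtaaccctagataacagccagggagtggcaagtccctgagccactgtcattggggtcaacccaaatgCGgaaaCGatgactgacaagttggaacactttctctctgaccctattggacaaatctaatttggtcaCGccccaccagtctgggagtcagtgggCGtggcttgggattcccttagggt

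The table held 80 promoters of 74 of the genes. The 76 promoters of genes that are not tissue-restricted had a median of 15 CpG, and all 32851 promoters of the table had a median of 6. The 4 promoters of restricted genes had a median of 6 and a range of 1 to 9. Those of Cox8b and Cox7a1 are both below that median, so the pairs shown are not typical of the restricted genes. Letters of motifs known for regulators of mitochondrial genes were searched on both strands. The searched sequence may run past the transcript start, so the motif percentages may not share the window of the CpG counts. GCATGCGC, of nuclear respiratory factor 1 (NRF1), was in 12.5% of the 80 promoters and 2.71% of all promoters. CCGGAAGT, of ETS factors such as GABP, was in 6.25% and 3.89%, and AAGATGGC, of YY1, was in 15% and 2.75%. These percentages of the 80 promoters are 10, 5 and 12 promoters. The NRF1 and ETS letters each hold a CpG, of which the genes' promoters had more by median than all promoters. No background matched for CpG was used, so the part of base composition was not tested. A match is a description of the letters and not a bound site. Atp5g2 (chr15:102671048-102671297, minus strand) and Atp5k (chr5:108434400-108434649, minus strand) each held 2 overlapping NRF1 matches, one per strand, which are in capitals below and belong to genes whose values between genotypes follow.
Atp5g2: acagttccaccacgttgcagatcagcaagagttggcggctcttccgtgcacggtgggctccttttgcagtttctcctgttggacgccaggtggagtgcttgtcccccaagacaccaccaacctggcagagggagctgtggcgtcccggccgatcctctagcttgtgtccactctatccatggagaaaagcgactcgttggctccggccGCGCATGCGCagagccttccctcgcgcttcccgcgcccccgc
Atp5k: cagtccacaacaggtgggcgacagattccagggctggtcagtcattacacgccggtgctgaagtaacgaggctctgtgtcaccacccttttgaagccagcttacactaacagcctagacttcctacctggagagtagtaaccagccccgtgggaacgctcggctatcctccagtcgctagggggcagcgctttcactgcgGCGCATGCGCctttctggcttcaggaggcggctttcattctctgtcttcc

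Whether the genotype pools differ in single genes of the pathway was asked with the ratio of CPM, taking genes that reached 100 UMIs over the pair. The pools also differed in their mix of cells. Cells with a UMI of Cd8a and none of Cd4 made up 10.9% of the WT, 35.6% of the Jα18-deficient and 68.7% of the CD1d-deficient pool. Genotype and this mix cannot be told apart in the ratios. Between the Jα18-deficient and WT pools, 2 of 81 genes were more than 1.5-fold higher, Uqcrc1 and Sdhaf3, and 1 was more than 1.5-fold lower, Cox6a2. Of all 10240 genes in that pair, 25.5% were higher and 14% lower by that fold. The median log2 ratio was -0.02 over the 81 genes and 0.14 over all genes, and with TMM scaling these medians were -0.14 and 0.02. Between the CD1d-deficient and WT pools, 3 of 81 genes were higher, Uqcrc1, Ndufv1 and Ndufs6, and 5 were lower, Sdhaf1, Ndufa4, Sdhaf4, Ndufc2 and Cox6a2, beside 22.6% and 22.8% of all genes. The medians there were -0.10 and 0.00 on the log2 scale (-0.0035 over all genes). Between the CD1d-deficient and Jα18-deficient pools, 1 of 80 genes was higher, Ndufv1, and 4 were lower, Sdhaf1, Sdhaf4, Sdhaf3 and Atp5s, beside 18.3% and 29.6% of all genes, with medians of -0.06 and -0.14. The pairs share pools, so they are not independent of each other. The counts past 1.5-fold depended on the cells taken: in double-negative cells alone they were 4 of 80, 16 of 79 and 15 of 80 in the 3 pairs, beside 3893 of 8735, 4307 of 7769 and 4529 of 7903 of all genes in those cells, and with a minimum of 10 UMIs the first was 5.

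The genes are abundant, and ratios of abundant genes vary less. With a minimum of 10000 UMIs per pair, a limit chosen after the values were seen, 9.02% of 1497 genes were higher and 3.47% lower for Jα18-deficient over WT, as against 1 and 0 of 71 oxidative phosphorylation genes. In the CD1d-deficient pool relative to WT, 6.81% and 7.97% of 690 genes were higher and lower, as against 1 (Ndufs6) and 1 (Ndufa4) of 53. Relative to the Jα18-deficient pool, 4.56% and 9.63% of 1205 genes were past the fold, as against 0 of 68.

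**Figure D4:**
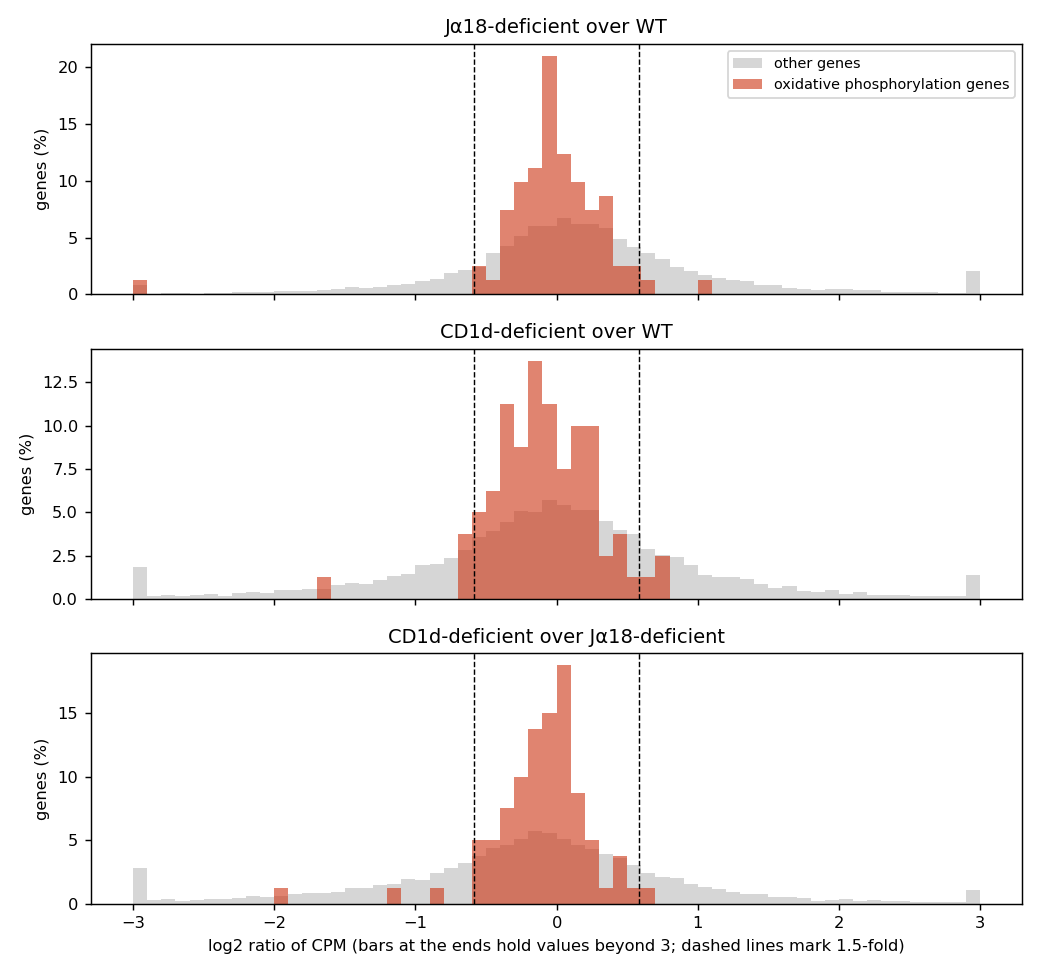
Distribution of the log2 ratio of CPM for oxidative phosphorylation genes and for other genes that reached 100 UMIs over the pair, in percent of each group, for the 3 pairs of genotypes; dashed lines mark 1.5-fold. The oxidative phosphorylation genes lie mostly between the dashed lines, and 3 of 81, 8 of 81 and 5 of 80 were counted past them. Genes at 0 in a pool are not drawn, so Cox6a2 is counted but not drawn for CD1d-deficient over WT.

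Among complex III genes, Uqcrc1, which encodes a core protein of the complex, had 170.2 CPM among WT, 259 CPM among Jα18-deficient and 289 CPM among CD1d-deficient cells. The WT pool was the lowest, and the ratio was 0.61 and 0.76 on the log2 scale for the Jα18-deficient and CD1d-deficient pools. For Jα18-deficient over WT it was 0.47 in thinned cells and 0.40 in double-negative cells, both below the 1.5-fold mark. For CD1d-deficient over WT the same alternatives gave 0.69 and 0.93, both above the mark. The share of thinned cells with a UMI was 50.9%, 54.0% and 55.5%, with exact Clopper-Pearson 95% intervals (counting of cells only) that overlap (46.5% to 55.2%, 49.98% to 57.9% and 48.8% to 62.1%). Uqcrc1 lies on chromosome 9 from 108838661 to 108851685 (plus strand, NCBIM37, as for the other gene positions below). Uqcrfs1 had 199.1, 139.4 and 153.9 CPM, and Uqcrc2, the other core protein, had 163.7, 149.4 and 199.7 CPM. Thus the WT pool was highest for one gene of complex III and lowest for another.

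In complex I, Ndufa4 (chromosome 6, 11850373 to 11857446, minus strand), since assigned to complex IV by structural work, had 729.1 CPM among WT, 609.4 CPM among Jα18-deficient and 453.8 CPM among CD1d-deficient cells. The log2 ratio of the CD1d-deficient to the WT pool was -0.68, and it was -0.55 in thinned cells and -0.28 in double-negative cells. Thinned cells with a UMI made up 91.2% (88.4% to 93.5%), 89.7% (87.1% to 92.0%) and 81.5% (75.8% to 86.3%). These intervals cover the counting of cells in 1 pool each and do not test the genotypes. Ndufs6 (chromosome 13, 73457286 to 73465990, minus strand), an accessory subunit, had 231.8, 262.3 and 376.6 CPM. Its thinned shares were 51.2%, 52.8% and 53.7%. The log2 ratio of the CD1d-deficient to the WT pool, 0.70 over all cells, was between 0.43 and 0.53 in thinned cells, cells of 20000 to 80000 UMIs and double-negative cells, below the 1.5-fold mark. Ndufv1 (chromosome 19, 4007497 to 4012806, minus strand), the core subunit that binds NADH, had 71.3, 74.4 and 120.5 CPM, with thinned shares of 22.2%, 24.5% and 25.6%. Its ratio of CD1d-deficient over WT went from 0.76 over all cells to between 0.43 and 0.57 in the same alternatives, and its ratio of CD1d-deficient over Jα18-deficient from 0.70 to 0.15 in thinned cells. The level of myeloid transcripts moved with the genotype, and its part in the values of Ndufa4 was not tested. Ndufc2, a membrane arm subunit (chromosome 7, 104548513 to 104556312, plus strand), had 174.7, 161.6 and 110.5 CPM, with a ratio of CD1d-deficient over WT of -0.66 over all cells and -0.29 in thinned cells. Ndufs3, a core subunit, had 148.6, 151.7 and 209.2 CPM. Among the genes with the next largest ratios of Jα18-deficient over WT, Ndufs1 was at 0.45 (-0.82, the opposite sign, in cells of 20000 to 80000 UMIs), Ndufa9 at -0.40 and Ndufab1, the acyl carrier protein, at -0.53 on the log2 scale.

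The assembly factors of complex II and Atp5s were lowest in the CD1d-deficient pool in 3 of 5 cases. Sdhaf1 had 51.8 CPM among WT, 62.1 CPM among Jα18-deficient and 16.6 CPM among CD1d-deficient cells, and thinned cells with a UMI made up 15.9% (12.8% to 19.3%), 12.7% (10.2% to 15.5%) and 5.73% (3.08% to 9.59%). The log2 ratio to the WT pool was -1.64 over all cells, -1.21 in thinned cells and -1.80 in double-negative cells, and the part of the myeloid transcripts in it was not tested. Sdhaf4 had 54.6, 77.3 and 34.2 CPM, with thinned shares of 18.4%, 19.1% and 13.2%, and its ratio of CD1d-deficient over WT, -0.67 over all cells, was 0.33 in double-negative cells. Atp5s had 14.2, 17.3 and 11.4 CPM, Sdhaf3 had 4.13, 8.56 and 4.70 CPM, and Sdhaf2 had 91.2, 77.3 and 81.5 CPM. Sdhaf3 was found in 18, 32 and 10 cells and Atp5s in 42, 72 and 4, so their ratios rest on few cells. For Cox6a2, with 109, 16 and 0 UMIs, the WT value came almost wholly from 1 cell.

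In complex V, Atp5k, the e subunit in the membrane, had 322.5 CPM among WT, 477.2 CPM among Jα18-deficient and 457.9 CPM among CD1d-deficient cells. The WT pool was the lowest, by a log2 ratio of 0.57 for the Jα18-deficient and 0.51 for the CD1d-deficient pool. Atp5d, the delta subunit of the catalytic part, had 487.4, 629.3 and 427.1 CPM. Atp5e, the highest gene of the complex, had 941.4, 883.9 and 783.4 CPM. In complex IV, Cox8a had 1372.2, 1355.3 and 1311.3 CPM, Cox4i1 had 1240.1, 1423.8 and 1092.2 CPM and Cox7b had 536, 397.8 and 408.1 CPM. For Cox7b the ratio of CD1d-deficient over WT was -0.39 over all cells and -1.09 in double-negative cells. Cox8a and Atp5e thus kept the order WT, Jα18-deficient, CD1d-deficient, while Cox4i1 was highest in the Jα18-deficient pool.

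The 3 genes Atp5g1 (chromosome 11, 95930166 to 95936984), Atp5g2 (chromosome 15, 102493299 to 102501478) and Atp5g3 (chromosome 2, 73746504 to 73749383), all on the minus strand, encode the same mature c subunit of the ATP synthase rotor with different import sequences. Atp5g1 had 467.1 CPM among WT, 566.3 CPM among Jα18-deficient and 580.1 CPM among CD1d-deficient cells. Its log2 ratio of CD1d-deficient over WT was 0.31 over all cells and -0.23 in cells of 20000 to 80000 UMIs, where the direction turned. Atp5g2 had 294.5, 268.2 and 208.8 CPM, and Atp5g3 had 323.4, 247 and 217.9 CPM. The share of Atp5g1 in the UMIs of the 3 genes was thus 43.0% (exact Clopper-Pearson 95% interval 42.5% to 43.6%), 52.4% (52.0% to 52.7%) and 57.6% (56.8% to 58.5%). After thinning it was 42.9%, 45.7% and 53.7%. In cells of 20000 to 80000 UMIs all 3 genes were lower in the CD1d-deficient than in the WT pool. The log2 ratios there were -0.23 for Atp5g1, -0.27 for Atp5g2 and -0.50 for Atp5g3. In double-negative cells the share of Atp5g1 was 44.2%, 43.6% and 54.4%, so the gap between the WT and Jα18-deficient pools was not present there and that of the CD1d-deficient pool was. In the Cd8a class the share was 46.0%, 49.9% and 58.2%. In the Cd4 class it was 40.7% in the WT and 53.7% in the Jα18-deficient pool, so the gap between these pools was present in both classes. These splits were added after the data were seen. Atp5g1 has 1 and Atp5g2 has 2 near-identical matches elsewhere in the genome, and their counts are uncertain to that extent.

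Subsets were then compared by the detection of Cd8a, Cd4 and S1pr1, a receptor for leaving tissue into blood. The Cd8a class (a UMI of Cd8a and none of Cd4) had 57 WT, 225 Jα18-deficient and 156 CD1d-deficient cells. The Cd4 class had 180, 94 and 2, and the double-negative class 252, 244 and 67. The 105 cells with both were left out. Detection depends on depth: the median was 52720, 71732 and 49616 UMIs in the Cd8a class and 39438, 39562 and 25279 in the double-negative class. The summed level of the 89 genes differed little between classes. It was 31496, 30507 and 28786 CPM in the Cd8a class of the WT, Jα18-deficient and CD1d-deficient pools and 30523, 30573 and 27562 CPM in the double-negative class. In the Cd4 class it was 30148 CPM in the WT pool and 31693 CPM in the Jα18-deficient pool. The Cd4 class was thus below the Cd8a class in the WT pool and above it in the Jα18-deficient pool. Cell cycle markers moved with some classes, at 364 CPM in WT double-negative cells and 24.4 CPM in WT Cd8a cells, and at 56.8 and 179 CPM in those of the Jα18-deficient pool, and their part was not tested.

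No gene of the pathway passed the test in any contrast of these classes. UMIs were summed per pool and class and put to edgeR's quasi-likelihood test, in which the pool was a block, so that pools of different genotypes stood in for replicates. Calls needed both a Benjamini-Hochberg adjusted p below 0.05 and a change of more than 0.25 on the natural log scale. Between the Cd8a and double-negative classes, 0 of 82 genes were called, beside 1 of all 10932 genes (0.00915%), and 1 of the 82 (1.22%) had an unadjusted p under 0.05, as did 4.37% of all genes. Between the Cd4 and double-negative classes, 0 of 82 were called, beside 0.00915% of all genes, and 5 (6.10%) had an unadjusted p under 0.05, as did 3.21% of all genes. Between the Cd8a and Cd4 classes, 0 of 82 were called, beside 0.0823%, and 3 (3.66%) had an unadjusted p under 0.05, as did 5.90% of all genes. DESeq2 called 0 of the genes in each of these contrasts as well. The single gene called called against the double-negative class was Cd8a or Cd4 itself, which defines the class. The Cd4 class entered with 2 pools, since 2 cells of the CD1d-deficient pool were too few for a sum.

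The size of what the test could see was limited. The standard error of the log2 fold change had a median of 0.20 to 0.24 over the genes of the pathway. On simulated counts for the first contrast, edgeR recovered 5% of genes changed 2-fold and 35% of genes changed 4-fold. The median log2 fold change of the pathway was 0.05 for Cd8a over double-negative (-0.01 over all genes), 0.10 for Cd4 over double-negative (-0.01) and -0.06 for Cd8a over Cd4 (0.02).

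The genes with the smallest p in these contrasts were complex I genes and Sdhaf4. Sdhaf4 was at 35.1 CPM in the Cd8a class and 54.4 CPM in the double-negative class of the WT pool, 43.7 and 72.8 CPM in the Jα18-deficient pool, and 26.5 and 68.4 CPM in the CD1d-deficient pool. The Cd8a class was the lower one in all 3 pools, with a log2 fold change of -0.89 ± 0.41 (SE; edgeR, adjusted p = 0.999). Thinned cells gave 0.28, the opposite sign. Classes were set again from the thinned counts, so cells that lost their Cd8a or Cd4 UMIs changed class. In the Jα18-deficient pool the Cd8a class went from 225 to 123 cells and the double-negative class from 244 to 438. Thinned values of these contrasts thus differ in the cells compared as well as in depth. In the Cd4 class Sdhaf4 was at 49.5 and 185.4 CPM in the WT and Jα18-deficient pools, and Cd8a over Cd4 gave -1.55 ± 0.47 (edgeR, adjusted p = 0.52), against 0.22 in thinned cells. Ndufa1, an accessory subunit, was higher in the Cd8a than in the double-negative class in each pool, at 460.6 against 341.8, 367.8 against 258.7 and 270.8 against 233.4 CPM (log2 0.39 ± 0.20, edgeR, adjusted p = 0.999). Ndufv2, a core subunit, had 261.9 against 159.6, 224.7 against 134.5 and 200.9 against 198.6 CPM (0.50 ± 0.26, edgeR, adjusted p = 0.999), and -0.15 in thinned cells.

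Ndufb9, an accessory subunit of the membrane arm, had 290.6 CPM in the Cd4 class and 222.8 CPM in the double-negative class of the WT pool, and 532.7 and 314.9 CPM in the Jα18-deficient pool (log2 0.87 ± 0.29, edgeR, adjusted p = 1). Ndufa12 had 292.1 against 232.4 CPM and 571.1 against 208.6 CPM in the same comparison (0.92 ± 0.35, edgeR, adjusted p = 1). Cells of 20000 to 80000 UMIs gave log2 values of -0.13 for Ndufb9 and -0.09 for Ndufa12, below 0 in both. Ndufb11 was lower in the Cd4 class of both pools, at 330 against 436.4 and 267.3 against 434.6 CPM (-0.55 ± 0.21, edgeR, adjusted p = 1). Between the Cd8a and Cd4 classes, Ndufa11 had 170.3 against 236.5 CPM in the WT pool and 288.7 against 404.5 CPM in the Jα18-deficient pool (-0.60 ± 0.22, edgeR, adjusted p = 0.748). Ndufa12 was higher in the Cd8a class of the WT pool, at 375 against 292.1 CPM, and lower in that of the Jα18-deficient pool, at 214.7 against 571.1 CPM (-0.75 ± 0.35, edgeR, adjusted p = 0.821). Without the WT pool the Cd4 class had the Jα18-deficient pool alone, so calls from that fit rest on 1 sum of this class and are not read as a result.

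**Figure D5:**
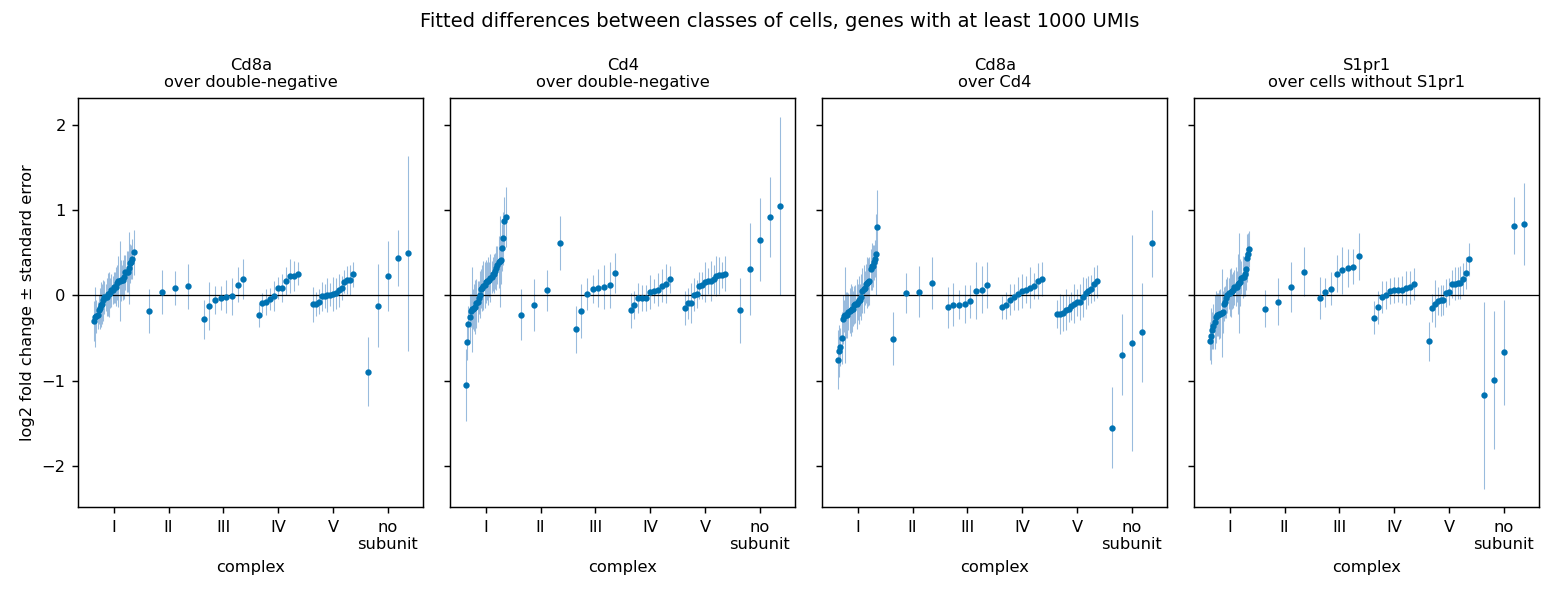
Fitted log2 fold change with its standard error for genes with at least 1000 UMIs, by complex, in the 4 contrasts of classes. Most points lie within 0.5 of 0, bars are widest for the genes that are not subunits, and 0 genes were called in each panel.

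Cells with a UMI of S1pr1 numbered 33 among WT, 110 among Jα18-deficient and 27 among CD1d-deficient cells, with median depths of 62978, 86347 and 52342 UMIs against 50554, 51206 and 35810 in cells without one. The summed level of the 89 genes was 29615 against 30630 CPM in the WT pool, 29969 against 30732 CPM in the Jα18-deficient pool and 26756 against 28749 CPM in the CD1d-deficient pool. Cells with S1pr1 were thus lower in each pool, by log2 differences of -0.05, -0.04 and -0.10. Complexes I, II, IV and V were lower in each pool, by -0.02 to -0.18. Complex III was higher in each, by 0.05, 0.08 and 0.12. These differences were not tested as sums.

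Gene by gene, 0 of 80 were called between cells with and without S1pr1, beside 4 of all 10025 genes (0.0399%), and 5 of the 80 (6.25%) had an unadjusted p under 0.05, as did 4.92% of all genes. DESeq2 called 0. The fitted median was 0.05 over the pathway and -0.16 over all genes, with 48 of 80 pathway genes above 0. Without TMM these medians were -0.07 and -0.27, and 27 of 80 were above 0. Ndufb9 was the gene with the smallest p, at 337.6 against 260 CPM in the WT pool, 355.1 against 324 CPM in the Jα18-deficient pool and 529.2 against 312.5 CPM in the CD1d-deficient pool (log2 0.54 ± 0.21, edgeR, adjusted p = 0.896). Sdhaf2 had 178.3 against 85.2, 84.6 against 74.8 and 133.9 against 74.2 CPM (0.82 ± 0.33, edgeR, adjusted p = 0.911). Ndufs6 was lower with S1pr1 in each pool, at 131.1 against 238.7, 196.8 against 284.9 and 264.3 against 392.4 CPM (-0.54 ± 0.23, edgeR, adjusted p = 0.94).

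Other genes of the pathway were taken from lists. None of the 13 subunits encoded in mitochondrial DNA has a row in the matrix, so the other genome of the pathway was not analysed here. Of 16 further genes of the chain and of ATP synthase, among them cytochrome c (Cycs), the ADP/ATP carriers and the ATP synthase inhibitor Atpif1, 0 were called in each of the 4 contrasts of classes. In the CD1d-deficient pool relative to WT 3 of the 16 were more than 1.5-fold higher, and 0 were lower, beside 22.6% and 22.8% of all genes, which is also the background of the other lists in this pair: Gpd2, the mitochondrial glycerol phosphate dehydrogenase (24.1 and 68.7 CPM in the WT and CD1d-deficient pools), Slc25a4, an ADP/ATP carrier (63.1 and 146.8 CPM), and Dhodh, an enzyme of pyrimidine synthesis that feeds electrons to ubiquinone (24.9 and 45.0 CPM). Slc25a5, the more abundant carrier, had 869.9 and 607.9 CPM. Of the 38 assembly factors, 36 had enough UMIs in that pair, of which 5 were higher and 10 lower. Of 13 genes of the TCA cycle, 3 were higher (Cs, Dlst and Idh3g) and 1 was lower (Fh1). Of 13 regulators of mitochondrial biogenesis, 11 had enough UMIs, of which 1 was higher (Tfb2m) and 5 lower (Gabpa, Ppargc1b, Pprc1, Tfam and Tfb1m). Between the Jα18-deficient and WT pools, where 25.5% of all genes were higher and 14% lower, the counts were 1 higher and 0 lower of 16 chain genes, 3 and 1 of 37 assembly factors, 0 and 2 of 13 TCA cycle genes, and 0 and 4 of 12 regulators. Ppargc1a, the coactivator best known for raising mitochondrial content, was at 0.0297 CPM among WT and 0.0501 CPM among Jα18-deficient cells and at 0 among CD1d-deficient cells, where a count of 0 allows up to 0.22 CPM. The assembly factors, TCA cycle genes and regulators had 0 called genes in the contrasts of classes too.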

How the data were processed

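Single NK1.1+CD3e+ liver cells of 3 genotypes were measured, in 24 libraries per the labels. The authors cut adapters (cutadapt 1.15), mapped reads with TopHat2 2.0.12 (build mm9), removed duplicates by UMI and counted transcripts per gene (HTSeq 0.10.0), and the deposited matrix holds these UMI counts, not normalized. How reads with several matches were treated is not given in the sources used here. The methods name a minimum of 10000 UMIs per cell, which 353 cells of the matrix miss, and these were left out. Cell names carry no library or barcode, so shared barcodes could not be counted. No 2 columns were identical (0 pairs).

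The members and lists were chosen with earlier results of these data known. CPM is UMIs per 1000000 of a pool. Depth was 33641489 (WT), 59920798 (Jα18-deficient) and 13628142 UMIs (CD1d-deficient). Genotypes were compared without a test, with exact Poisson and Clopper-Pearson 95% intervals, and a count of 0 allows 3 UMIs. Such intervals cover counting error only. Classes were tested on sums of at least 10 cells with edgeR 4.0.16 (TMM, filterByExpr, quasi-likelihood, Benjamini-Hochberg over all genes tested) in R 4.3.3, and with DESeq2 1.42.0 as an alternative. The fit was tested on simulated data, where edgeR called 0 and DESeq2 34 unchanged genes of 10932.

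Named genes were the highest and lowest detected member of each complex, the paired forms, members outside the complexes, the 3 smallest p per contrast without calls, and the 5 highest and 5 lowest ratios per pair of genotypes. Of those, 1 is not reported or drawn here. Slc25a5, Ppargc1a and others beyond this rule were chosen after their values were seen. Copies were sought with blastn 2.17.0 in NCBIM37. Positions are from GENCODE M1 (NCBIM37), which has no single entry under the symbols Ndufb8, Sdhaf3 and Sdhaf4. Promoters are from RefSeq (GRCm38.p6, another build than mm9), matched by symbol or by an unambiguous synonym for 74 of 89 genes. Alternatives were other scaling, filters, depths, thinned cells, classes and pools left out. Python 3.11.15 with scipy 1.17.1 and matplotlib 3.10.9 made tables and figures.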

Additional observations from a re-analysis of the deposited data

Results flagged for a closer look

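The summed level of the 89 genes moved in opposite directions between classes in different pools. Between the Cd8a and double-negative classes the log2 ratio of the summed CPM was 0.045 among WT, -0.0031 among Jα18-deficient and 0.063 among CD1d-deficient cells. Between the Cd4 and double-negative classes the ratio came to -0.018 (WT) and 0.052 (Jα18-deficient), and between the Cd8a and Cd4 classes 0.063 and -0.055. These differences between pools were not tested, and each is below 0.07 on the log2 scale.

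The change of the per-cell share with depth also differed in sign between pools. The median share of the deepest cells minus that of the shallowest was 0.497 percentage points among WT, 0.371 among Jα18-deficient and -0.0748 among CD1d-deficient cells, and the difference between pools was not tested. The sign in the CD1d-deficient pool rests on its shallowest cells (2.83%), since its median went from 2.48% to 2.60% and 2.76% over the deeper bins.

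Cells under 10000 UMIs, which enter no comparison, carried the 89 genes at 27380 CPM among WT (100 cells), 24431 CPM among Jα18-deficient (93 cells) and 26846 CPM among CD1d-deficient cells (160 cells). This is below the level of the deeper cells in each pool, with no test.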

How the results depend on the processing

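No paired analysis was possible because the columns of the matrix carry no library numbers, although the labels number the libraries of each genotype alike. The count of 0 pathway genes called held under each alternative of each contrast of classes except one. With the WT pool left out it did not hold between the Cd4 and double-negative classes or between the Cd8a and Cd4 classes. The Cd4 class then had the Jα18-deficient pool alone, so those calls rest on 1 sum of this class and are not read as a result. With any pool left out, classes in these contrasts rest on 1 or 2 sums each. Genes past 1.5-fold between genotypes went from 3 to 5 (Jα18-deficient over WT, at least 10 UMIs), from 8 to 16 (CD1d-deficient over WT, double-negative cells) and from 5 to 8 and 15 (CD1d-deficient over Jα18-deficient, cells of 20000 to 80000 UMIs and double-negative cells). With at least 10000 UMIs in the pair, added after seeing the data, they were 1, 2 and 0, when fewer genes are counted. The summed level was 29237, 29847 and 28005 CPM in thinned cells of the WT, Jα18-deficient and CD1d-deficient pools and 29177, 29675 and 26958 CPM in cells of 20000 to 80000 UMIs. Without the UMI minimum it was 30479 CPM (Jα18-deficient) and 28400 CPM (CD1d-deficient), in double-negative cells 27562 CPM (CD1d-deficient), and in cells without a myeloid marker UMI, also added later, 30651 CPM (WT) and 30619 CPM (Jα18-deficient). The CD1d-deficient pool was the lowest in thinned cells, in cells of 20000 to 80000 UMIs, in double-negative cells and without the minimum, but not among cells under 10000 UMIs taken alone. It had 3 cells without a myeloid marker UMI, too few for a value.

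Of 303 log2 values of named genes under alternatives, 200 kept their sign and call or moved within counting error, 86 moved by more than counting error, 4 gained a call and 13 changed sign. In thinned cells the sign changed for Sdhaf4 (0.28 and 0.22 for Cd8a over double-negative and over Cd4), Ndufv2 (-0.15, Cd8a over double-negative), Ndufb9 (-0.028) and Ndufa12 (-0.13, both Cd4 over double-negative), and Ndufa12 (0.070, Cd8a over Cd4). Classes were set again after thinning, so these values compare other cells as well as another depth. In cells of 20000 to 80000 UMIs it changed for Sdhaf4 (0.042, Cd8a over double-negative), Ndufb9 (-0.13), Ndufa12 (-0.088 for Cd4 over double-negative and 0.11 for Cd8a over Cd4) and Ndufs6 (0.047, with over without S1pr1). For Cd8a over Cd4, Ndufa12 went from -1.65 without the WT pool to 0.13 without the Jα18-deficient pool, and in double-negative cells Sdhaf4 was at 0.33 for CD1d-deficient over WT. The cause was not tested. Genes with few UMIs in few cells, such as Sdhaf3 and Atp5s, are limited by depth.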
